A study of Mus musculus with 8 samples.

Results

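The 7 genes described here encode secreted Wnt ligands that mark compartments of the fetal kidney: Wnt9b, Wnt7b and Wnt6 in the ureteric epithelium, Wnt4 in the pretubular aggregates that form nephrons, and Wnt5a, Wnt2b and Wnt5b, which are placed with the stroma or ureteric compartment. They were chosen by name, with earlier results of these data known. All 7 were found among 21291 gene rows and passed the filter on low values, with 14974 genes in all. RNA was measured in kidney pairs from E14.5 mouse embryos, with 4 mutant and 4 control libraries, by sequencing of polyA-selected RNA. Mutants were labelled Six2-GFPcre tg/+; Etv4-/-; Etv5fl/fl, and controls, described as littermates, Six2-GFPcre tg/+; Etv4+/-; Etv5fl/fl. Both groups therefore carried the Cre transgene and 2 floxed Etv5 alleles, and the labels differ at Etv4 alone. Six2-GFPcre is expressed in nephron progenitors, so Cre acts in these cells and their descendants, whereas the Etv4 null allele is labelled with no limit to a cell type. The series asks what loss of the ETS-family transcription factors Etv4 and Etv5 from nephron progenitors does to the kidney.

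Wnt ligands are lipid-modified glycoproteins that act over short distances on Frizzled receptors, either through beta-catenin or through other branches. In the mouse kidney, Wnt9b from the ureteric stalk signals to the neighbouring progenitors and is required for nephron induction, and Wnt4 is then made by the induced cells and drives their change into an epithelium. Wnt7b from the ureteric trunk patterns the medulla, and Wnt11 is made at the ureteric tips, where it supports branching together with GDNF and RET.

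Etv4 had 294, 281, 219 and 164 normalized counts in mutants 1 to 4 and 2816, 2803, 2816 and 2311 in controls 1 to 4, so the groups stood far apart. Normalized counts are estimated read counts divided by a size factor for each library. Etv5 averaged 2119.7 ± 511 normalized counts in mutants and 3614 ± 491 in controls (SD, n = 4 each). Its log2 fold change of −0.79 had a limma adjusted p of 0.106, above the threshold of 0.05 used below. Total estimated counts ran from 35308934 to 38824018 in mutants and from 15515139 to 39548327 in controls, the lowest being control 4, in which 18.4% of counts came from Lars2. The summed level of 4 Y-linked genes was 0 to 19.6 normalized counts in mutants and 3586 to 3716 in controls, so a difference by genotype and one by sex cannot be told apart in any result that follows. Summed proximal tubule markers, which rise as nephrons mature, reached 3961 and 9440 in mutants 3 and 4 and 3086 in control 4, and lay between 228 and 704 in the other 5 libraries.

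None of the 7 ligands passed the threshold between mutants and controls. By limma over all 14974 genes, with Benjamini-Hochberg adjustment and a threshold of 0.05, 0 of 7 were called, where 0.301% of all genes were: 0.0801% with mutants higher and 0.22% with mutants lower. At an unadjusted p below 0.05 there were 2 of 7, Wnt4 and Wnt7b, both higher in mutants, against 12.0% of all genes (6.33% higher and 5.72% lower in mutants). Limma voom, which weights each value by its counting precision, also called 0 of 7, against 0.461% of genes. Of the 7 log2 fold changes 6 were above 0, as were 51.7% of all genes, with a median of 0.10 for the ligands and 0.0087 for all genes tested. The ligands differed in sign and in precision: the 95% intervals of Wnt4, Wnt5a, Wnt5b and Wnt9b lay within a range of −0.37 to 0.52 on the log2 scale, while those of Wnt6, Wnt7b and Wnt2b reached −1.43, 0.98 and 1.26.

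**Figure D1:**
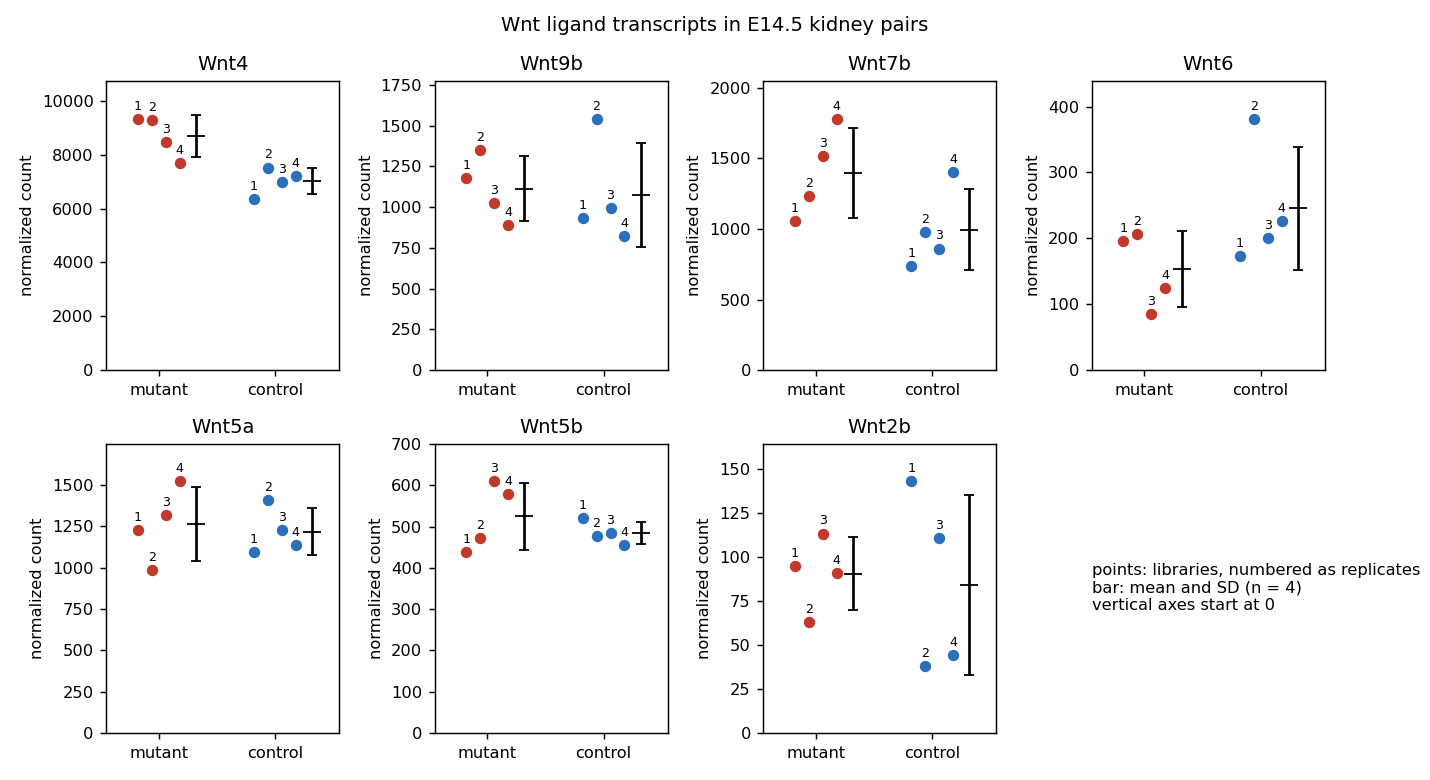
Normalized counts of the 7 Wnt ligands in each library (points, numbered by replicate), with mutants on the left, controls on the right, and the mean and SD beside each group (n = 4). The 4 mutant points lie above the 4 control points in the Wnt4 panel, and the groups overlap in the other 6 panels.

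**Figure D2:**
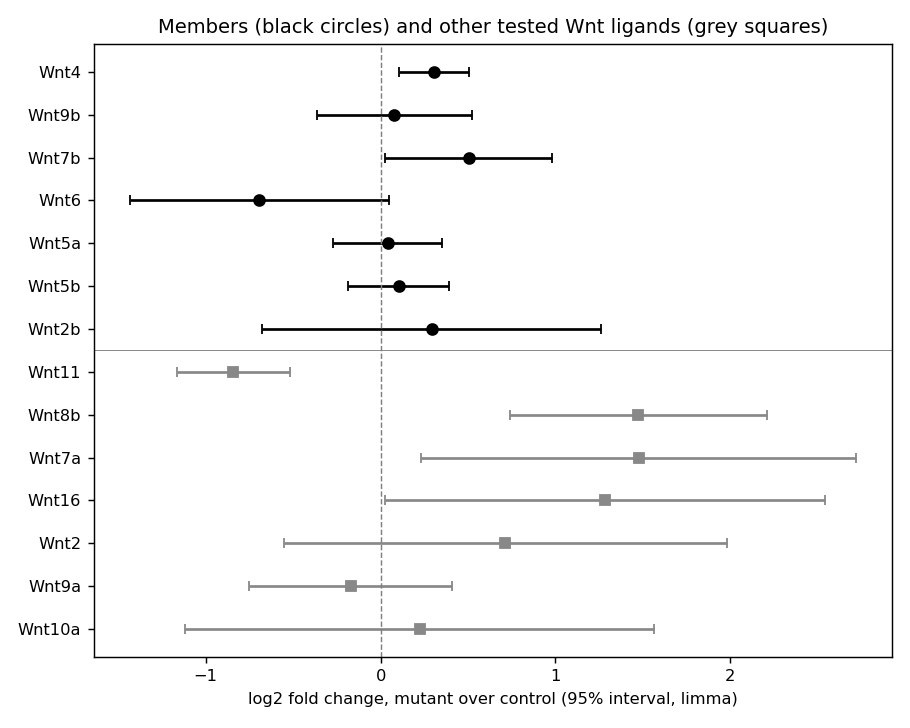
Log2 fold changes, mutant over control, with 95% intervals from limma, for the 7 ligands (black circles) and the 7 other Wnt ligands that passed the filter (grey squares). The Wnt4 and Wnt7b intervals lie above 0, and the Wnt6 interval reaches from −1.43 to 0.05. Of the 7 others, 3 have intervals above 0, Wnt8b among them, and 1, Wnt11, lies below 0.

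Wnt4 (ENSMUSG00000036856, chromosome 4, 137277489 to 137299726, plus strand, GRCm38) had the smallest p of the 7. It had 9333, 9272, 8459 and 7699 normalized counts in mutants 1 to 4, against 6370.4, 7523, 6996 and 7205 in controls 1 to 4. Every mutant library lay above every control library, which is true, in that direction, of 4.17% of all genes tested; groups without overlap in either direction made up 8.6%. The means were 8691 ± 772 in mutants and 7024 ± 486 in controls (SD, n = 4 each), or 0.31 on the log2 scale with a standard error of 0.09 (adjusted p = 0.194 by limma, unadjusted p = 0.00639). The interval of 0.11 to 0.50 does not reach 1, so a doubling of Wnt4 lies outside it. The size of the difference varied with the libraries compared: it was 0.43 between mutants 1 and 2 and controls 1 and 2, whose library names share a number, and 0.096 between mutant 4 and control 4, which share another; what these numbers stand for is not labelled.

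Genes of the pretubular aggregate and renal vesicle, the cells that make Wnt4, were mostly on the same side. Of 8 markers, 0 passed the threshold by limma and 1 by limma voom, 7 had positive fold changes, and 4 did not overlap between the groups, all higher in mutants, as 4.17% of all genes tested were. Pax8, a paired-box regulator of early nephrons, averaged 3684 ± 200.1 normalized counts in mutants and 2388 ± 420.3 in controls (SD, n = 4 each), and its log2 fold change of 0.64 had a limma adjusted p of 0.0688. Cdh6, a cadherin of the renal vesicle, had a log2 fold change of 0.94 (limma adjusted p = 0.154). Fgf8, at −0.11, was the 1 marker below 0, and Bmp2 was at 0.011. Both were chosen after their values were seen. The median over the 8 markers was 0.58, larger than the 0.31 of Wnt4. Set against the mean log2 level of these markers, Wnt4 differed by −0.19 between mutants and controls, within the SDs of 0.19 and 0.21, and the groups overlapped. In whole kidneys, fewer or more cells of a type and a changed level of RNA per cell cannot be told apart.

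The promoter window of Wnt4 is shown because this ligand separated the groups; it is 300 bases, from 250 before to 50 after the transcript start in RefSeq (GRCm38.p6, plus strand, chr4:137277385-137277684), printed 5′ to 3′.
Wnt4: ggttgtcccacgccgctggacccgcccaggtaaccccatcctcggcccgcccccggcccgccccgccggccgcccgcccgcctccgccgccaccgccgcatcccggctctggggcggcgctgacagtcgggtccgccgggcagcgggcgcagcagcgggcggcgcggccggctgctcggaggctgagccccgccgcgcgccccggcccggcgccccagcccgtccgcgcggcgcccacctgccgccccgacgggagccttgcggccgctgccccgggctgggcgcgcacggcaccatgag
The window was 84.3% G and C.

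Wnt9b (ENSMUSG00000018486, chromosome 11, 103727364 to 103749821, minus strand), the ureteric inducer of nephron formation, stood at closely similar means in the groups. It had 1180.2, 1353, 1025 and 893 normalized counts in mutants 1 to 4, against 936, 1542, 994 and 822 in controls 1 to 4. Control 2 was the highest and control 4 the lowest of all 8 libraries, so the mutants lay wholly inside the range of the controls. The means were 1113 ± 199 in mutants and 1074 ± 321 in controls (SD, n = 4 each), and the log2 difference was 0.08 with a standard error of 0.20 (limma, adjusted p = 0.914). The interval of −0.37 to 0.52 leaves room for modest differences in either direction. Wnt9b lies 1.94 megabases from Etv4 on the same chromosome. Of the 43 genes tested between them 0 passed the threshold, where 0.301% of all genes did. At that share 0 calls would be likely in any stretch of this size, so the count says little about this one. The Wnt9b window (minus strand, chr11:103749772-103750071) is shown for comparison with Wnt4.
Wnt9b: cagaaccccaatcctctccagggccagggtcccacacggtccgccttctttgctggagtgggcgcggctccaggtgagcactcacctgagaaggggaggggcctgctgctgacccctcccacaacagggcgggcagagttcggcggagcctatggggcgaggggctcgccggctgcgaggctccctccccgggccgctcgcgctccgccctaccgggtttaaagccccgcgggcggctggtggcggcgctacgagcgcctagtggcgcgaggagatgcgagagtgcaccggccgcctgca
The window was 71.7% G and C.

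Of 4 progenitor genes that are lowered in mouse Wnt9b mutants, 0 passed the threshold and all 4 had negative fold changes, with a median of −0.60. Pla2g7 averaged 1050.1 ± 99.5 normalized counts in mutants and 1768 ± 366 in controls (SD, n = 4 each), and its log2 fold change of −0.73 had a limma adjusted p of 0.0836. Cited1, a transcriptional cofactor of uncommitted progenitors, averaged 172 ± 46.1 in mutants and 319 ± 32.6 in controls (limma adjusted p = 0.104). Neither gene overlapped between the groups, a separation that held with mutants lower for 4.43% of all genes tested. Nephron progenitor markers were lower at the same time: all 8 had negative fold changes with a median of −1.27, and Osr1 and Crym fell (limma adjusted p = 0.0152 and 0.0185). These 2 calls depended on the libraries and settings: of the 8 markers 0 were called without mutant 3 or without control 3, with total-count scaling or without the variance trend, 1 without mutant 1, mutant 4 or control 1, and 4 without control 4. Without control 4, 1 of the 4 Wnt9b-dependent genes was called. Cited1 and Uncx are on both lists, and the part of progenitor number in the lower values was not tested.

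Wnt7b (ENSMUSG00000022382, chromosome 15, 85535437 to 85582473, minus strand), the ligand of the ureteric trunk, had 1055, 1236, 1519.6 and 1781 normalized counts in mutants 1 to 4, against 738, 981, 862 and 1400.4 in controls 1 to 4. All 4 mutants lay above controls 1 to 3, and control 4 lay above mutants 1 and 2. The means were 1398 ± 319 in mutants and 995 ± 288 in controls (SD, n = 4 each), 0.50 apart on the log2 scale with a standard error of 0.21 (limma, adjusted p = 0.388, unadjusted p = 0.041). In the authors' deposited table, which lists 644 genes with adjusted p below 0.05, Wnt7b has a log2 fold change of 0.70, a standard error of 0.18 and an adjusted p of 0.00352. It is the single member of the 7 in that table, which holds 2.95% of the gene rows. Mean counts given there for Wnt7b, Wnt11, Wnt8b and Etv4 stand in the proportions of the libraries without control 4, not of all 8. That table thus appears to leave control 4 out, unlike the limma fit above. Without control 4 the limma log2 fold change was 0.68 and the adjusted p 0.0936.

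The level of Wnt7b ran parallel to that of proximal tubule markers. Ordered by the mean log2 level of the 3 proximal tubule markers that passed the filter (Hnf4a, Lrp2 and Cubn), the 8 libraries stood in the same order as by Wnt7b, which was so for none of the other 6 ligands; this was noticed after the values were seen. The highest by either measure was mutant 4, at a marker level of 10.92, and the lowest was control 1, at 4.50. Mutants 1 and 2 and control 2 had almost equal marker levels of 7.16, 7.26 and 7.07, with 1055 and 1236 normalized counts of Wnt7b in those mutants and 981 in that control. Control 4, the library in which the groups overlap, had a marker level of 8.80, above those of the other controls. The part of nephron maturity or tubule number in the Wnt7b values was not tested.

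**Figure D3:**
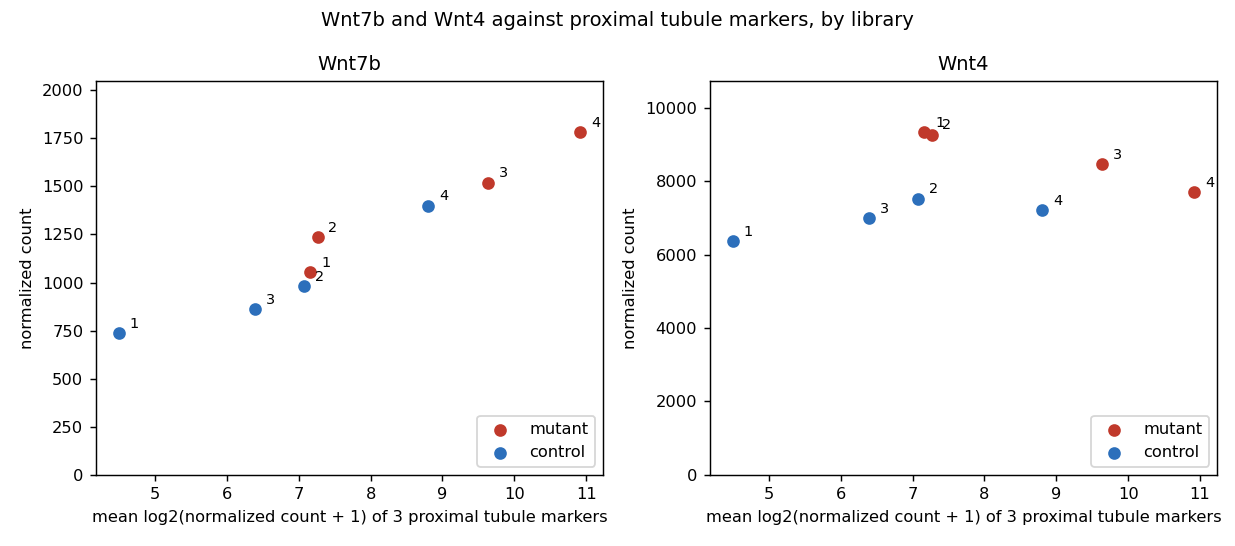
Normalized counts of Wnt7b (left) and Wnt4 (right) against the mean log2(normalized count + 1) of 3 proximal tubule markers, 1 point per library, numbered by replicate. Wnt7b climbs from control 1 at the lower left to mutant 4 at the upper right, with control 4 alone among the mutants. For Wnt4 the 4 mutants lie above the 4 controls.

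Markers of the ureteric epithelium as a whole overlapped between the groups. Of 7 markers, 0 passed the threshold, with a median log2 fold change of 0.27; Gata3, a transcription factor of the ureteric lineage, was at −0.23 and the keratin Krt8 at 0.40. Set against the mean log2 level of these markers, Wnt7b stood at −1.44, −1.22, −1.15 and −1.10 in mutants 1 to 4 and at −1.66, −1.68, −1.74 and −1.47 in controls 1 to 4. On this relative scale the groups did not overlap, with a difference of 0.41 against SDs of 0.15 in mutants and 0.12 in controls. Of 14967 genes put on the same scale, 2.1% did not overlap with mutants higher, and 4.34% did not overlap in either direction. Against 6 trunk markers Wnt7b differed by 0.21, within the SDs of 0.51 and 0.42; of these markers 0 passed the threshold and Gata2, a transcription factor of the collecting duct, was at 0.47 (limma adjusted p = 0.18).

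Wnt6 (ENSMUSG00000033227, chromosome 1, 74771892 to 74785322, plus strand), which in the mouse is made at the ureteric tips, was the 1 member of 7 with a negative fold change. It had 197, 207, 85.3 and 125 normalized counts in mutants 1 to 4, against 173, 381, 200.3 and 227 in controls 1 to 4. Mutants 3 and 4 lay below every control, while mutants 1 and 2 lay among the controls. The means were 154 ± 58.4 in mutants and 245 ± 93.3 in controls (SD, n = 4 each), −0.69 on the log2 scale with a standard error of 0.33 (limma, adjusted p = 0.448, unadjusted p = 0.0632). The difference was −0.35 between mutants 1 and 2 and controls 1 and 2, and −0.86 between mutant 4 and control 4. Wnt6 was represented by 98 estimated counts in mutant 3 and 82 in control 4, so its counting error is larger than that of Wnt4 or Wnt9b. Its promoter window (RefSeq, plus strand, chr1:74771642-74771941) is shown beside those of Wnt4 and Wnt9b.
Wnt6: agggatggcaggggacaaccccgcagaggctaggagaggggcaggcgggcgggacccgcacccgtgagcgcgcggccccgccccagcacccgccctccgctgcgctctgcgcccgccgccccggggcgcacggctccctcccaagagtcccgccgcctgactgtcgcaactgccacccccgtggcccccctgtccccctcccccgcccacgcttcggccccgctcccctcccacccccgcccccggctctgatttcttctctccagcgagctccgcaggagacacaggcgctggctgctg
The window was 76.7% G and C.

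Markers of the ureteric tip were mostly lower in mutants as well, and their part in the Wnt6 values was not tested. Of 6 tip markers, which include Wnt11, 0 passed the threshold by limma and 1 by limma voom, 5 had negative fold changes, and 4 did not overlap between the groups, all lower in mutants, as 4.43% of all genes tested were. Wnt11, the tip ligand, had 1093, 1245, 919 and 781 normalized counts in mutants 1 to 4, against 1545, 1964, 1825 and 1824 in controls 1 to 4. It differed by −0.84 on the log2 scale, with a standard error of 0.15 (limma, adjusted p = 0.058). In the authors' deposited table, which appears to leave out control 4, the difference is −0.81 with an adjusted p of 5.26e-05. Without control 4 limma gave −0.83. Wnt11 passed the threshold in 4 of 21 alternatives, among them limma voom (adjusted p = 0.0449), without control 4 (0.0445) and without both mutant 4 and control 4 (0.0379). Sox8, a transcription factor of the tip, had a log2 fold change of −1.71 (limma adjusted p = 0.155). Set against the mean log2 level of the 6 tip markers, Wnt6 differed by 0.032, with SDs of 0.42 in mutants and 0.45 in controls. Against the 7 ureteric epithelium markers it differed by −0.79, with SDs of 0.75 in mutants and 0.45 in controls. The groups overlapped on both of these scales.

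Of the 6 ratios among Wnt6, Wnt7b, Wnt9b and Wnt11, 3 overlapped between the groups and 3 did not. These ratios were chosen after the values were seen, and since they are not corrected for length they compare libraries and not the abundance of the genes. The ratio of Wnt6 to Wnt9b was 0.167, 0.153, 0.0833 and 0.14 in mutants 1 to 4 and 0.185, 0.247, 0.201 and 0.276 in controls 1 to 4. The groups did not overlap, and the log2 ratio differed by −0.77, with SDs of 0.45 in mutants and 0.26 in controls. Of all genes set against Wnt9b in this way, 0.848% did not overlap with mutants lower, and 1.37% in either direction. The ratio of Wnt11 to Wnt9b was 0.926, 0.92, 0.896 and 0.875 in mutants and 1.65, 1.27, 1.84 and 2.22 in controls, again without overlap. The ratio of Wnt7b to Wnt9b overlapped, from 0.894 to 1.99 in mutants and from 0.636 to 1.70 in controls. The ratio of Wnt6 to Wnt11 also overlapped, with a log2 difference of 0.15, as did that of Wnt7b to Wnt6, with a log2 difference of 1.20. The ratio of Wnt7b to Wnt11 was 0.965, 0.992, 1.65 and 2.28 in mutants and 0.478, 0.499, 0.472 and 0.768 in controls, without overlap. Set against Wnt11, 68.3% of all genes did not overlap and 68.2% did so with mutants higher, so this ratio is not particular to Wnt7b.

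**Figure D4:**
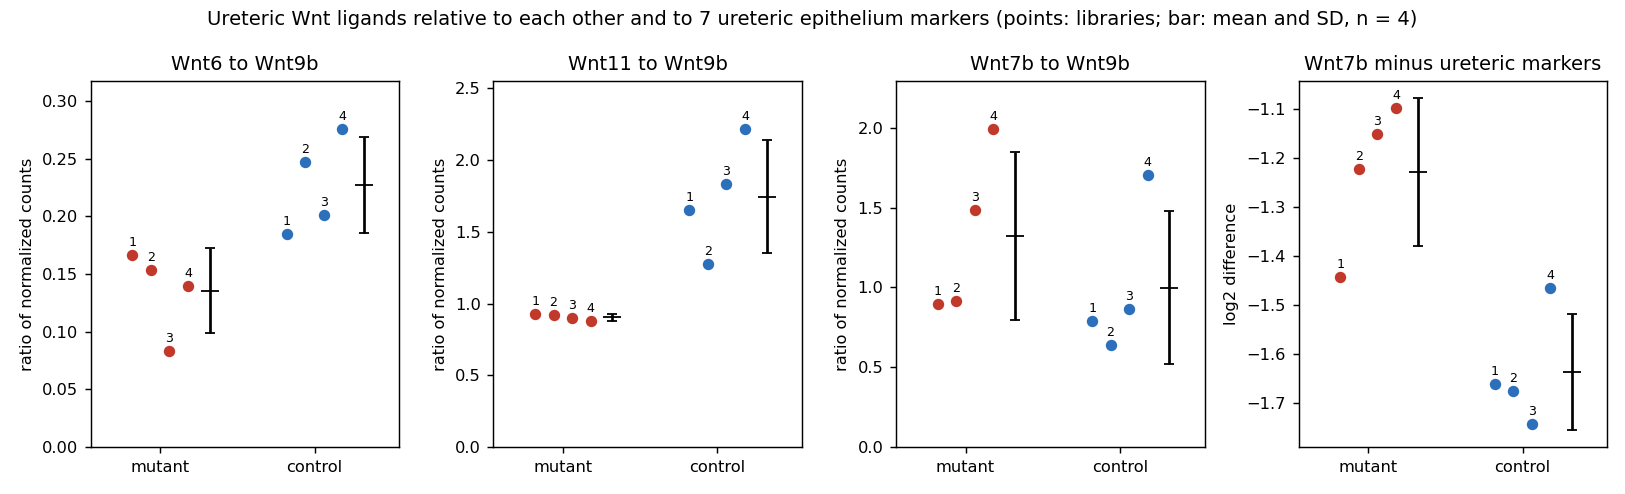
Ratios of normalized counts for 3 pairs of ureteric ligands, and the log2 level of Wnt7b minus the mean log2 level of 7 ureteric epithelium markers, by library (numbered points), with mean and SD (n = 4). Mutants lie below controls for Wnt6 to Wnt9b and Wnt11 to Wnt9b, the groups overlap for Wnt7b to Wnt9b, and mutants lie above controls for Wnt7b relative to the markers; the ratio axes start at 0, and the log2 axis does not.

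Wnt5a (ENSMUSG00000021994, chromosome 14, 28504750 to 28527448, plus strand), a ligand of mesenchyme that acts largely without beta-catenin through Ror2, had 1225, 983, 1320.2 and 1521 normalized counts in mutants 1 to 4, against 1092, 1411, 1227 and 1137 in controls 1 to 4. Mutant 2 was the lowest and mutant 4 the highest of all libraries, and the controls lay between them. The means were 1262 ± 223 in mutants and 1217 ± 141 in controls (SD, n = 4 each), 0.04 apart on the log2 scale (standard error 0.14, limma adjusted p = 0.936). The interval of −0.27 to 0.35 limits a difference of either sign more closely than for any of the 7 except Wnt4 and Wnt5b. The sign depended on the libraries: it was −0.18 between mutants 1 and 2 and controls 1 and 2, and 0.42 between mutant 4 and control 4.

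Wnt5b (ENSMUSG00000030170, chromosome 6, 119432531 to 119544347, minus strand), the close relative of Wnt5a, had 439.6, 473, 609.6 and 578 normalized counts in mutants 1 to 4, against 521, 476, 484 and 457 in controls 1 to 4. Mutants 3 and 4 lay above the controls, mutant 1 lay below them, and mutant 2 lay among them. The means were 525 ± 81.7 in mutants and 484 ± 27.1 in controls (SD, n = 4 each), 0.10 apart on the log2 scale (standard error 0.13, limma adjusted p = 0.796). The controls varied least for this ligand, with a coefficient of variation of 5.59%, against 15.6% in mutants.

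Wnt2b (ENSMUSG00000027840, chromosome 3, 104945272 to 104961921, minus strand), a ligand that signals through beta-catenin and is expressed in kidney mesenchyme, was the scarcest of the 7. It had 94.6, 62.8, 113 and 90.5 normalized counts in mutants 1 to 4, against 143, 37.9, 111 and 44.3 in controls 1 to 4. The mutants lay inside the range of the controls, which fell into a high pair, controls 1 and 3, and a low pair, controls 2 and 4. The means were 90.3 ± 20.8 in mutants and 84.0 ± 51.2 in controls (SD, n = 4 each), 0.29 apart on the log2 scale (standard error 0.43, limma adjusted p = 0.835). Control 4 held 16 estimated counts of Wnt2b, and the interval of −0.68 to 1.26 includes differences of over 2-fold. Of 11 renal stroma markers 0 passed the threshold, with a median log2 fold change of 0.20; Aldh1a2, a retinoic acid synthesis enzyme, was at −0.46 and the collagen gene Col3a1 at 0.37. Set against the mean log2 level of these markers, Wnt5a differed by −0.022 and Wnt2b by 0.23, both within the SDs of the groups.

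Compared per kilobase of annotated exon, Wnt4 was the most abundant of the 7 ligands in every library. It had 2072 ± 184 normalized counts per kilobase in mutants and 1675 ± 116 in controls (SD, n = 4 each), and made up 63.6% to 71.0% of the 7 ligands' summed level in mutants and 62.3% to 66.2% in controls. Wnt7b followed with 285 ± 65.2 per kilobase in mutants and 203 ± 58.7 in controls, then Wnt9b with 246 ± 44.0 in mutants and 238 ± 71.0 in controls. Wnt5b had 198 ± 30.8 per kilobase in mutants and 183 ± 10.2 in controls, and Wnt5a 161 ± 28.6 in mutants and 156 ± 18.03 in controls. Neighbours in this order from Wnt7b to Wnt5a overlapped in their ranges over the 8 libraries and were not separated. Wnt6 came next with 70.03 ± 26.6 per kilobase in mutants and 112 ± 42.6 in controls, and Wnt2b last with 21.5 ± 4.95 in mutants and 20.0 ± 12.2 in controls. By this length Wnt2b lay below Wnt6 with no overlap. With the longest transcript as the length their ranges overlapped, Wnt2b reaching up to 43.0 and Wnt6 down to 41.2 per kilobase. The Wnt6 range reached that of Wnt5a through control 2 alone.

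**Figure D5:**
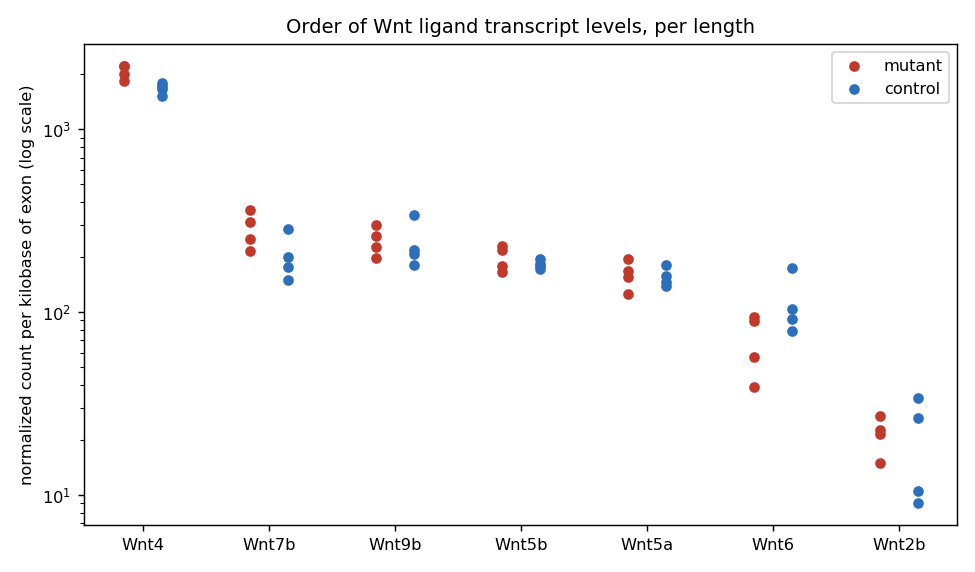
Normalized counts per kilobase of annotated exon for each ligand on a log scale, in order of the mean over 8 libraries, with mutants (red) left of controls (blue). Wnt4 lies at 1519 or more per kilobase in every library, the ranges of Wnt7b, Wnt9b, Wnt5b and Wnt5a overlap, and Wnt2b lies between 9.02 and 34.0.

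Among the promoter windows of the members, 2 short motifs were counted on both strands. RefSeq windows were matched for 5 of the 7 ligands, 7 windows in all because Wnt5b has several starts; Wnt5a and Wnt7b had no entry. CCGGAA, the core that ETS factors such as Etv4 bind (TTCCGG on the other strand), was in 0 of the 7 windows and in 14.9% of 32851 windows of the same length. CTTTGA, a TCF/LEF core through which beta-catenin acts (TCAAAG on the other strand), was in 1 of 7, at a Wnt5b start (minus strand, chr6:119449337-119449636), and in 16.0% of all windows. That window is shown with the match in capitals.
Wnt5b: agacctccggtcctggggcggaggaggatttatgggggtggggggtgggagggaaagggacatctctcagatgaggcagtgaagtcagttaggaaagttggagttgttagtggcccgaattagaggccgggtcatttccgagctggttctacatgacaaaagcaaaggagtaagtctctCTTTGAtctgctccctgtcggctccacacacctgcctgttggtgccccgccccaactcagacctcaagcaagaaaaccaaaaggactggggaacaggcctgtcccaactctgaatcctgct
The other windows printed here hold neither motif, so they carry no capitals; a match or its absence in a window of this length says nothing of binding.

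The genes whose pattern over the 8 libraries was most like that of each ligand, by Pearson correlation on log2(normalized count + 1), are a description with no test, since so many genes were compared over 8 points that share library effects. For Wnt7b they were Ctsd (r = 0.992), Gja3 (0.991) and Emx1 (0.991), of which Emx1 is a homeobox gene. For Wnt4 they were Inpp5d (r = 0.959), Tmem255a (0.954) and Ica1 (0.944). For Wnt6 they were Lrig2 (r = 0.979), Zfp639 (0.974) and Coil (0.955), for Wnt9b Cdc25b (0.940), Fcho1 (0.936) and Slc35g1 (0.934), and for Wnt5b Lix1l (0.990), Ltbp4 (0.945) and Oxct1 (0.941). For Wnt5a they were Man1b1 (r = 0.947), Snn (0.941) and Nudt16 (0.929), and for Wnt2b Ppp1r3e (0.971), Epha2 (0.965) and Chrm5 (0.963). None of these 21 genes passed the limma threshold.

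Of 12 other Wnt ligand genes, 10 had a row and 7 passed the filter, of which 0 were called by limma, 5 had positive fold changes and 2 negative ones. Limma voom called 1 of the 7, Wnt11. Wnt8b, known in the mouse from the developing brain, had 80.7, 141, 138 and 172 normalized counts in mutants 1 to 4, against 49.7, 27.6, 66.2 and 47.0 in controls 1 to 4, without overlap. Such a separation, with mutants higher, held for 4.17% of all genes tested. The log2 fold change of Wnt8b was 1.47 (SE 0.33), with a limma adjusted p of 0.106. In the authors' deposited table, which appears to leave out control 4, it is 1.48 with an adjusted p of 0.00363. Without control 4 limma gave 1.49 and an adjusted p of 0.0832. Wnt10a, the neighbour of Wnt6 on chromosome 1, averaged 26.4 ± 8.19 normalized counts in mutants and 26.6 ± 14.9 in controls (SD, n = 4 each); it was chosen after its value was seen. Wnt3 and Wnt3a were not analysed here, and Wnt1, Wnt8a and Wnt10b did not pass the filter.

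Genes that process, receive and modulate Wnt ligands also gave 0 calls by limma and by limma voom; without control 4 there was 1 call among the receptors and 1 among the modulators. All 3 genes of ligand processing had positive fold changes, among them Wls, the carrier that escorts Wnt proteins to the cell surface, with 3769 ± 439 normalized counts in mutants and 2729 ± 251 in controls (SD, n = 4 each). Its log2 fold change of 0.46 had a limma adjusted p of 0.106. The groups did not overlap for Wls, as was so with mutants higher for 4.17% of all genes tested. Notum, which removes the lipid from Wnt proteins, was at 0.61 (adjusted p = 0.361 by limma). Of 16 receptors and co-receptors, 8 had positive and 8 negative fold changes, led by Ptk7 at −0.34 (limma adjusted p = 0.155) and Ryk at −0.22 (0.21). Of 15 secreted modulators tested, 10 were positive and 5 negative: Rspo1, an R-spondin that strengthens Wnt signalling, averaged 733 ± 114 in mutants and 1170.1 ± 189 in controls (limma adjusted p = 0.104), and Sfrp2, a secreted Wnt-binding protein, had a log2 fold change of 0.57 (0.224).

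Feedback targets of beta-catenin showed no common direction. Of 11 targets 0 passed the threshold, 6 had positive and 5 negative fold changes, and the median was 0.099. Tcf7, a TCF/LEF factor, averaged 1037 ± 131 normalized counts in mutants and 1347 ± 61.5 in controls (SD, n = 4 each), with a limma adjusted p of 0.165 and no overlap. Such a separation, with mutants lower, held for 4.43% of all genes tested. Apcdd1, a membrane inhibitor of Wnt signalling, was at a log2 fold change of 0.42 (limma adjusted p = 0.375). Axin2, the most widely used readout of this branch, averaged 1009.1 ± 166 in mutants and 1156 ± 223 in controls, −0.19 on the log2 scale (standard error 0.17, limma adjusted p = 0.695); it was chosen after its value was seen.

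Adrenal, gonad and sympathetic neuron markers were low. Summed over 7 adrenal and gonad markers with a row, the level was 121 to 168 normalized counts in mutants and 121 to 211 in controls, and Foxl2, an ovarian factor, was at 0 in every control and at no more than 2.45 in any mutant. Nr5a1, the steroidogenic factor, averaged 23.6 ± 2.33 in mutants and 7.83 ± 9.53 in controls (limma adjusted p = 0.337), and Star, a cholesterol carrier of steroid-making cells, averaged 73.03 ± 27.3 in mutants and 104.7 ± 21.5 in controls (0.494). Of 4 sympathetic neuron markers, Tubb3 alone passed the filter, and the sum was 52.2 to 84.1 in mutants and 76.4 to 125 in controls. All 5 endothelial and all 5 macrophage markers had positive fold changes, with medians of 0.40 and 0.50 and 0 called; Tie1 was at 0.55 and Tek at 0.42 among the first, and Laptm5 at 0.50 and Csf1r at 0.46 among the second (limma adjusted p from 0.104 to 0.143). Ureteral mesenchyme and smooth muscle markers summed to 6725 to 7776 normalized counts in mutants and 9902 to 13035 in controls. Of these 5 markers 0 passed by limma and 1 by limma voom. Fold changes were positive for 4 of them, with a median of 0.35 over the 5, and Des alone was negative. Des was at −1.17 and Tbx18 at 0.50 (limma adjusted p = 0.058 and 0.278). Mean log2 levels of the 5 markers overlapped between the groups, at 9.26 to 10.03 in mutants and 9.44 to 9.66 in controls.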

How the data were processed

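Per the labels' protocols, paired-end sequencing was done on polyA-selected RNA of E14.5 kidney pairs, with 1 pair of kidneys per library. The submitters' processing notes name kallisto 0.46.0, fastp 0.23.2, DESeq2 1.40.2 and the mm10 build, without roles or settings. The deposited log2 values are, per the values, log2(estimated count + 1) with no depth correction: once back-transformed, 73.4% of them lay within 1e-06 of a whole number. That share includes zeros, and among values above 0 it was 67.8%. The authors' second table, as deposited, gives a mean normalized count (signal), a log2 fold change, its standard error and a statistic (scores), and p-values; the choice of its 644 genes and the counting strand are not stated.

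Back-transformed counts were scaled by size factors (median of ratios, 0.361 to 1.27). A gene was kept when 4 or more libraries had 10 or more normalized counts. The test was limma 3.58.1 in R 4.3.3 (moderated with a variance trend, with genotype alone in the model, two-sided) on log2(normalized count + 1), a scale that understates changes of low genes, with Benjamini-Hochberg adjustment over 14974 genes. The steps were tested on simulated data. GENCODE M21 (GRCm38, the assembly of mm10) gave lengths and positions, and RefSeq the promoter windows. The members and lists were chosen with earlier results of these data known. The text names the genes of a list that were called or, with none called, its 2 smallest p-values (1 such gene is not reported here), and for each ligand the 3 most correlated named genes. p-values are set against the spread within groups, with no term for sex or litter. Alternatives covered filters, pseudocount, scaling, weights, trend, blocks, libraries left out and transcript length.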

Additional observations from a re-analysis of the deposited data

How the results depend on the processing

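The count of 0 of 7 Wnt ligands past the threshold held in each of the 21 alternatives, including voom weights and the fits that leave out 1 library; the lowest adjusted p was 0.053 for Wnt4 (without mutant 4 and control 4) and 0.0712 for Wnt7b (replicate block). Wnt11, not one of the 7, had an adjusted p of 0.032 with the replicate block. Of 147 refitted fold changes of the ligands, 139 kept their sign and 8 reversed, none of them past the threshold. With 1 library left out, the log2 fold change ran from −0.011 to 0.62 for Wnt2b, from −0.053 to 0.16 for Wnt5a and from −0.035 to 0.26 for Wnt9b; among mutants 1 and 2 and controls 1 and 2 alone, which share a library-name number, it was −0.18 for Wnt5a and −0.13 for Wnt5b, and without mutant 4 and control 4 it was −0.081 for Wnt5a.

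The count of all genes past the threshold, 45 (12 higher, 33 lower), was less stable. It was 11 with total-count scaling, 80 (62 higher, 18 lower) with no correction for depth, 69 with voom weights, 28 with no variance trend, 133 with the replicate block, 17 among mutants 1 and 2 and controls 1 and 2 alone and 179 without mutant 4 and control 4. It ran from 2 to 161 with 1 library left out: 10, 2 and 161 without control 1, 3 or 4, and 13, 19, 9 and 22 without mutants 1 to 4. The median log2 fold change of all genes shifted to 0.48 with no correction for depth and to 0.14 with total-count scaling, and Wnt6 stayed below 0 in both. The cause of these differences was not tested. Whether the replicate numbers of the titles pair the libraries was not settled. Deviations of same-numbered libraries from their group means correlated at 0.27, 0.098, −0.13 and 0.35 across genes. For mutants 1 and 4 the same-numbered control gave the highest value. For mutants 2 and 3 the highest was with control 1 (0.24) and control 4 (0.18). The order of the 7 ligands per kilobase was the same with the longest transcript as the length, but the ranges of Wnt6 and Wnt2b then overlapped. Control 4, the shallowest library, sets the largest counting error for Wnt6 and Wnt2b. In the 14 groups of 4 libraries, no ligand had a library far enough from the others to be singled out by Dixon's test.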
